A study of Homo sapiens with 8 samples.

Results

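The miR-181 family was followed through small RNA libraries of H1299 cells with and without mutant p53R273H. Its members were chosen by name, as the listed miR-181 arms that have a row in the deposited tables. These were 6 of 945 miRNAs, namely hsa-miR-181a-5p, hsa-miR-181b-5p, hsa-miR-181c-5p, hsa-miR-181d-5p, hsa-miR-181a-3p and hsa-miR-181a-2-3p, written here without the prefix for human. A further 3 arms of the family, miR-181b-3p, miR-181c-3p and miR-181d-3p, lay outside the list and are given beside them. H1299, a cell line of a human non-small cell lung cancer, was derived from a lymph node and makes no p53. The EV cells were H1299 infected with an empty vector and came from another laboratory. The R273H cells were H1299 transfected with pCMV-Neo-Bam-p53 R273H, in which the CMV promoter drives the mutant p53, and were grown on from G418-resistant colonies, in a number not given in the sources used here. Cells at passages 15 to 20 were left untreated or received etoposide, which blocks topoisomerase II and breaks DNA, for 24 h, and each of the 4 groups has 2 libraries. The labels give the etoposide dose as 10 µM in one place and as 10 mM in another. The paper reports that profiling of short tandem repeats found the lines isogenic. It also shows mutant p53 protein in the R273H cells by immunoblot. Still, the different origin of the lines cannot be told apart from the presence of mutant p53. Small RNA does not measure the transgene itself, so the labels could not be checked on it.

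A miRNA precursor is a short hairpin that is cut into a duplex of 2 arms. The guide arm is loaded into an Argonaute protein and pairs with messenger RNAs mainly through its seed, while most copies of the passenger arm are lost. In the miR-181 family the 5p arms are the guides. The family is best known from lymphoid cells, where miR-181a tunes the response of T cells to antigen, and its guides are also known to act on ATM, the kinase that signals DNA breaks, and to take part in TGF-beta signaling and the epithelial-to-mesenchymal transition (EMT).

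The mature sequences are shown because each member differs from another by 3 bases or fewer, which bears on how reads are assigned. The 3p arms also differ between the genes. They are RefSeq sequences from a table on GRCh38.p14, which held all 9 arms. Capitals mark the seed, bases 2 to 8 from the 5′ end. The guides were:
miR-181a-5p: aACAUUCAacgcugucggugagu
miR-181b-5p: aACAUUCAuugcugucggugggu
miR-181c-5p: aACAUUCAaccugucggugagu
miR-181d-5p: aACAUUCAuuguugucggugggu
The passenger arms of the 2 miR-181a precursors were:
miR-181a-3p: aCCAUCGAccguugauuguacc
miR-181a-2-3p: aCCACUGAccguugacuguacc

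All 4 guides carry the same seed, ACAUUCA. Counted from the 5′ end, miR-181a-5p and miR-181b-5p differ by A9U, C10U and A21G, and miR-181b-5p and miR-181d-5p differ by C12U alone. A single edit also separates miR-181a-5p, of 23 bases, from miR-181c-5p, of 22 bases. The passenger arms miR-181a-3p and miR-181a-2-3p differ by U5C, C6U and U16C, so that their seeds are CCAUCGA and CCACUGA. Most of miR-181a-3p, from its 5′ end on, is also found within miR-181c-3p. How a read that matched more than one of these arms was counted is not given in the sources used here. The split between such near-identical guides, and that between the passenger arms, is therefore uncertain.

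The family comes from 6 genes in 3 pairs. On GRCh37, MIR181B1 (chromosome 1, 198828002 to 198828111, minus strand) and MIR181A1 (198828173 to 198828282) lie in introns of the long non-coding RNA gene MIR181A1HG. MIR181A2 (chromosome 9, 127454721 to 127454830, plus strand) and MIR181B2 (127455989 to 127456077) lie in introns of MIR181A2HG and, on the opposite strand, of NR6A1, which codes for a nuclear receptor. MIR181C (chromosome 19, 13985513 to 13985622, plus strand) and MIR181D (13985689 to 13985825) lie in introns annotated for NANOS3, a gene known from germ cells. The sequences of miR-181a-5p and miR-181b-5p are each found in 2 genes, 1 on chromosome 1 and 1 on chromosome 9. In contrast, miR-181a-3p was found only in MIR181A1, at 198828198 to 198828219 of chromosome 1, and miR-181a-2-3p only in MIR181A2, at 127454797 to 127454818 of chromosome 9. Reads rightly assigned to these arms therefore keep both miR-181a genes apart, which those of the guide do not.

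The libraries held 234545 to 579367 reads on annotated features, of which 90.8% to 98.2% were on miRNAs and 1.72% to 8.77% on tRNA. Each deposited value was a whole multiple of what 1 read is worth, and the reads themselves could be recovered. In a library, 30.6% to 44.5% of miRNA reads were miR-21-5p. Levels are given as reads per 1000000 miRNA reads (RPM), on which 1 read is worth 1.86 to 4.69 RPM, and tests used the deposited normalized counts, which are reads divided by a size factor per library. Of the 6 epithelial marker miRNAs, which include the miR-200 family, the summed reads were 4 to 7 in untreated and 5 in treated EV, and 2 to 18 and 2 to 5 in R273H. Epithelial markers were thus nearly absent although the line is a carcinoma. The 6 markers of blood cells, a class of cells rich in miR-181, summed to 4 to 13 and 7 to 15 reads in untreated and treated EV and to 8 to 16 and 1 to 4 in R273H, with a read for at most 3 of them in a group. Among these, miR-142-3p, which blood cells make in large amounts, had 0 to 2 reads. The marker sum of muscle was 0 to 20 reads, that of liver 0 to 10 and that of neurons 0 to 3. The 20 muscle reads, 18 of miR-1 and 2 of miR-206, were all in the second untreated R273H library. No other library had more than 3 muscle reads. The highest epithelial sum, 18 reads, was in that library too.

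The guides made up 89.5% to 98.1% of the reads of the 6 members, and the family as a whole was a minor part of the miRNA pool. It took 0.166% to 0.435% of the miRNA reads. Its summed level was 2030 and 1857 RPM in untreated EV, 2361 and 3103 in etoposide-treated EV, 1660 and 3715 in untreated R273H, and 4350 and 3830 in etoposide-treated R273H. The R273H etoposide libraries had the highest sums, while the untreated R273H libraries held the lowest sum of all and the third highest.

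Among the guides, miR-181a-5p was the most abundant member in every library, with 263 to 1351 reads and a rank of 36 to 58 among the miRNAs. Its level was 1294 and 1185 RPM in untreated EV, 1235 and 2051 in treated EV, 868 and 2513 in untreated R273H, and 2666 and 2084 in treated R273H. The untreated R273H libraries enclosed the level of every other library but one. For miR-181b-5p, the second guide, the levels were 540 and 552 RPM in untreated EV, 878 and 848 in treated EV, 571 and 954 in untreated R273H, and 1360 and 1347 in treated R273H. The treated R273H libraries were the highest, and replicates lay closer together than for miR-181a-5p in all groups. The guide miR-181c-5p had 18 to 76 reads, or 44.3 to 150 RPM, and miR-181d-5p had 1 to 7 reads in a library. In every library the order of the guides was miR-181a-5p, miR-181b-5p, miR-181c-5p and miR-181d-5p. On average over the groups, miR-181a-5p ranged from 1240 ± 77.3 RPM (SD, n = 2) in untreated EV to 2375 ± 412 in treated R273H. Between them lay treated EV at 1643 ± 577 and untreated R273H at 1690 ± 1163, and no neighbours in that order differed beyond their spread. The plot of levels by library shows these values with those of the passenger arms.

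**Figure D1:**
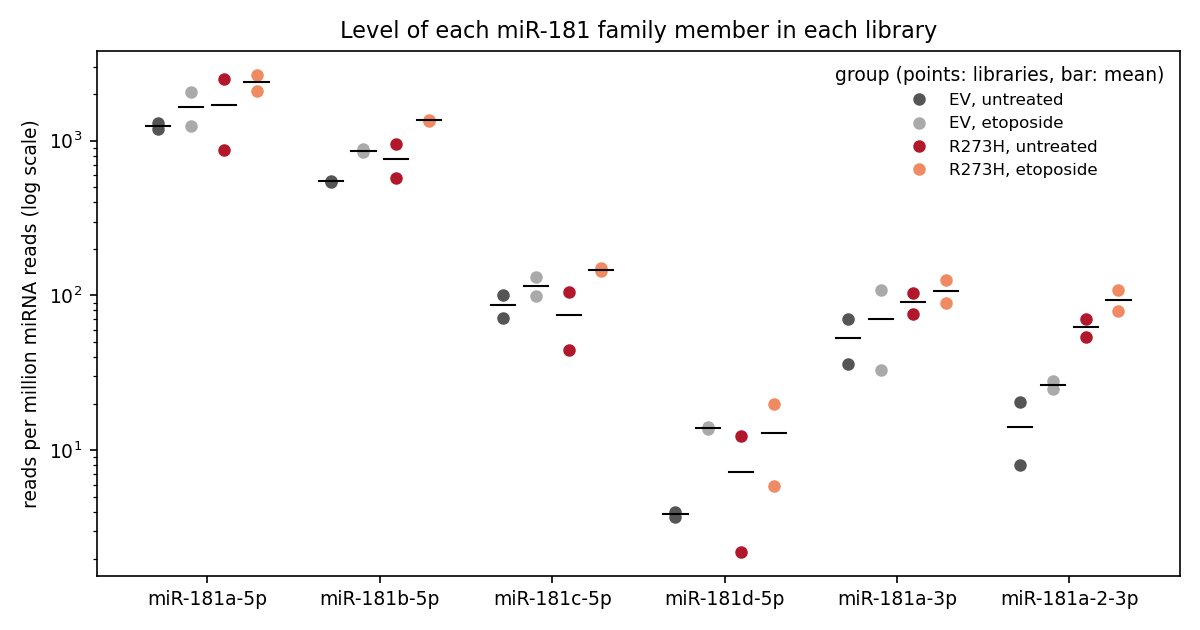
Level of each member (RPM, log scale) in the 8 libraries, with points for libraries and bars for the mean of the 2 libraries of a group. Only miR-181a-2-3p has all 4 R273H libraries, at 54.1 to 109 RPM, above all 4 EV libraries, at 8.01 to 28.2 RPM.

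The passenger arm miR-181a-2-3p, which comes from the chromosome 9 gene, was the member that differed between the lines. It had 11 and 2 reads in untreated EV, 6 and 9 in treated EV, 32 and 22 in untreated R273H, and 40 and 38 in treated R273H. In RPM these were 20.5 and 8.01, 28.2 and 24.8, 70.8 and 54.1, and 78.9 and 109. All R273H libraries were above all EV libraries. The means were 14.2 ± 8.82 RPM (SD, n = 2) in untreated EV, 26.5 ± 2.35 in treated EV, 62.5 ± 11.8 in untreated R273H and 93.9 ± 21.2 in treated R273H. A rise in all cells and a rise in some of them cannot be told apart in such bulk libraries. The matching arm from chromosome 1, miR-181a-3p, had 38 and 9, 23 and 12, 47 and 31, and 45 and 44 reads in the same order. Here the treated EV library with 23 reads, at 108 RPM, was above 3 of the 4 R273H libraries, at 76.2, 104 and 88.8 RPM, and the groups of the lines overlapped.

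Untreated cells were compared first, in their own table, to ask which members differed with mutant p53R273H. Of the members, 5 had a mean normalized count of at least 3 and entered the limma test over 304 miRNAs, while miR-181d-5p, with 3 reads in EV and 6 in R273H, did not. Only miR-181a-2-3p passed an adjusted p of 0.05, among 33 miRNAs called higher in R273H, which are 10.9% of the miRNAs tested (62 of 304, 20.4%, were called in either direction). Its normalized counts were 7.62 and 3.19 in EV and 32.8 and 19.6 in R273H, which are means of 5.41 ± 3.13 and 26.2 ± 9.39 (SD, n = 2). On the log2(normalized count + 1) scale, which understates the change of low miRNAs, the difference was 2.13 (SE 0.55, 95% interval 0.99 to 3.28), or 4.39-fold, with an adjusted p of 0.0093 in limma. This miRNA was also on the list of differential miRNAs that the study drew from the same libraries, so the call is not independent of that list. The criteria of the study, an unadjusted p under 0.05 and a change of at least 2-fold, were also applied to the limma values. Here 1 of the 5 members passed, again miR-181a-2-3p, beside 83 of 304 miRNAs (27.3%). The study applied them to its own DESeq test, so this count is not the one it reported.

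The call depended on the test and on single libraries. With edgeR on the recovered reads the difference was 1.89 on the log2 scale with an adjusted p of 0.058, and with DESeq2 it was 2.02 with an adjusted p of 0.034. Scaling all libraries to equal upper quartiles gave 1.82 with an adjusted p of 0.077 in limma and scaling to miRNA reads without miR-21-5p gave 2.05 and 0.053, and the first of these moved the median of all miRNAs from 0.10 to -0.24. Relative to that median the difference of miR-181a-2-3p was 2.03 as deposited and 2.06 with equal upper quartiles. In limma the adjusted p was 0.18 without the second EV library (log2 difference 1.61), 0.30 without the first R273H library (1.77) and 0.20 without the second R273H library (2.49), with the lone library taken to vary like the others.

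The other members had smaller values in untreated cells, and none passed the test. For miR-181a-3p the normalized counts were 26.3 and 14.3 in EV and 48.2 and 27.6 in R273H, with a log2 difference of 0.87 (95% interval -0.12 to 1.87, limma adjusted p of 0.20). The guide miR-181b-5p had 201 and 220 in EV against 265 and 345 in R273H, a log2 difference of 0.52 (-0.15 to 1.19, limma adjusted p of 0.25). For the main guide, miR-181a-5p, the values were 481 and 472 in EV and 402 and 908 in R273H, so that R273H lay on both sides of EV. Its log2 difference was 0.34 (-0.38 to 1.07, limma adjusted p of 0.52), and it was -0.0016 with equal upper quartiles. The counts of miR-181c-5p were 37.4 and 28.7 against 20.5 and 38.2, a log2 difference of -0.22 (-1.17 to 0.73, limma adjusted p of 0.76). Without overlap between the groups, 3 of the 5 members were higher in R273H (miR-181b-5p, miR-181a-3p and miR-181a-2-3p) and 0 were lower, where 34.9% of all miRNAs tested were higher and 26.6% lower in this way. In RPM the same 3 members did not overlap, where 30.3% of all miRNAs were higher and 27.6% lower. The median log2 difference was 0.52 over the members and 0.10 over all miRNAs tested. The intervals of these 3 guides include a 2-fold change, so a change of that size could not be told from none with 2 libraries a group.

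**Figure D2:**
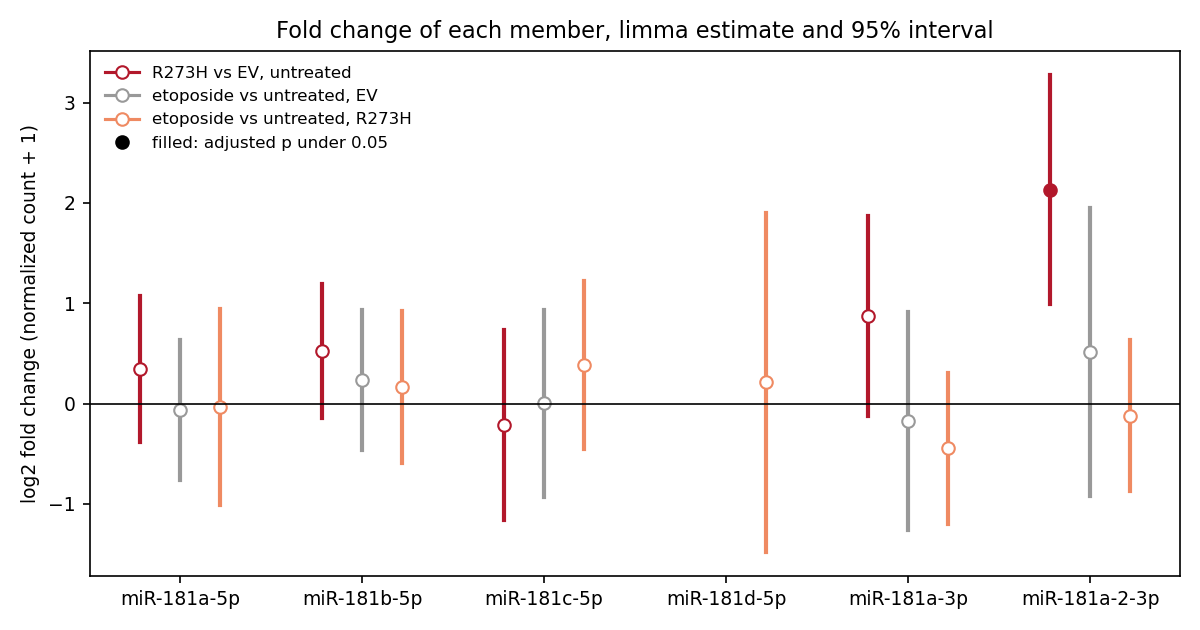
Log2 fold change of each member (log2 of the normalized count + 1) for R273H against EV in untreated cells and for etoposide against untreated cells in each line, with limma estimates as points and 95% intervals as lines. The only filled point is miR-181a-2-3p in R273H against EV, at 2.13, and the interval of every other point includes 0; miR-181d-5p passed the minimum count only in the R273H table.

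The comparison of the lines under etoposide used the recovered reads of all 8 libraries in 1 edgeR fit, since no table held both groups. Of the 6 members, all tested, miR-181a-2-3p was again the only one called, with 28.2 and 24.8 RPM in EV and 78.9 and 109 RPM in R273H. Its log2 difference was 1.43, or 2.69-fold, at an adjusted p of 0.047 in edgeR, among 27 of 334 miRNAs (8.08%) called higher and 75 (22.5%) called in either direction. DESeq2 gave 1.50 with an adjusted p of 0.076. In limma on reads scaled to equal miRNA totals the difference was 1.71 with an adjusted p of 0.12. The median of all miRNAs rose by 0.36 on that scale. In edgeR the adjusted p was 0.051 without the first untreated EV library, 0.17 and 0.084 without the first and the second treated EV library, and 0.20 and 0.17 without the first and the second treated R273H library. In RPM, 4 of the 6 members did not overlap between the treated lines and were higher in R273H, namely miR-181a-5p, miR-181b-5p, miR-181c-5p and miR-181a-2-3p, as were 32.6% of the miRNAs tested, and 0 of the 6 were lower, as were 14.1%. The edgeR log2 differences were 0.13 for miR-181a-5p (adjusted p of 0.86), 0.30 for miR-181b-5p (0.59), -0.06 for miR-181c-5p (0.94), 0.40 for miR-181a-3p (0.62) and -0.60 for miR-181d-5p (0.70).

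Over both conditions, a contrast added after the data were seen set the mean of both R273H groups against the mean of both EV groups. The edgeR log2 difference of miR-181a-2-3p was 1.67, or 3.17-fold, with an adjusted p of 0.0003, and R273H was higher in 4 of 4 libraries. Of 334 miRNAs, 123 (36.8%) were called, 52 of them (15.6%) higher. The call remained with each library left out in turn, with log2 differences of 1.48 to 2.13 and adjusted p values of 0.0002 to 0.0055 in edgeR. It was also kept in the other fits run, at adjusted p values of 0.00015 to 0.0047 in edgeR, DESeq2 and limma. The contrast reuses the libraries of both line comparisons and is no separate evidence. Of the 6 members it was the only one whose 4 R273H libraries lay above the 4 EV libraries, a pattern of 9.28% of the miRNAs tested, and 0 members showed the opposite pattern, which 6.89% did. The other 5 members had log2 differences of -0.21 to 0.51, and none was called in this fit. Without the second treated EV library, miR-181a-5p was called as well (log2 difference of 0.66, adjusted p of 0.038 in edgeR).

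The passenger arms were then set against each other, which needs no scaling between libraries but assumes that their reads were told apart. Of the reads of both miR-181a passenger arms, miR-181a-2-3p took 22.4% (11 of 49 reads, 95% exact Clopper-Pearson interval 11.8% to 36.6%) and 18.2% (2 of 11, 2.28% to 51.8%) in untreated EV. In treated EV it took 20.7% (6 of 29, 7.99% to 39.7%) and 42.9% (9 of 21, 21.8% to 66.0%). The R273H libraries gave 40.5% (32 of 79, 29.6% to 52.1%) and 41.5% (22 of 53, 28.1% to 55.9%) untreated and 47.1% (40 of 85, 36.1% to 58.2%) and 46.3% (38 of 82, 35.3% to 57.7%) with etoposide. These intervals cover counting error only. Thus 3 EV libraries were lower than all R273H libraries, and the other, the second treated EV library with 21 reads, was within their range. The mean share was 43.9% ± 3.32 in R273H and 26.0% ± 11.3 in EV (SD, n = 4 each), a difference of 17.8 percentage points with p = 0.086 in a two-sided exact permutation test added after the data were seen. The smallest p this test allows is 0.029. It shuffled treated and untreated libraries together, and miR-181a-2-3p had already been called in the same reads. Within untreated or within treated libraries the same permutation test gave p = 0.33, its smallest possible value there. Leaving out each library in turn gave differences of 15.2 to 23.4 points, the largest of them without the second treated EV library. The plot of both passenger arms shows the levels behind these shares.

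**Figure D3:**
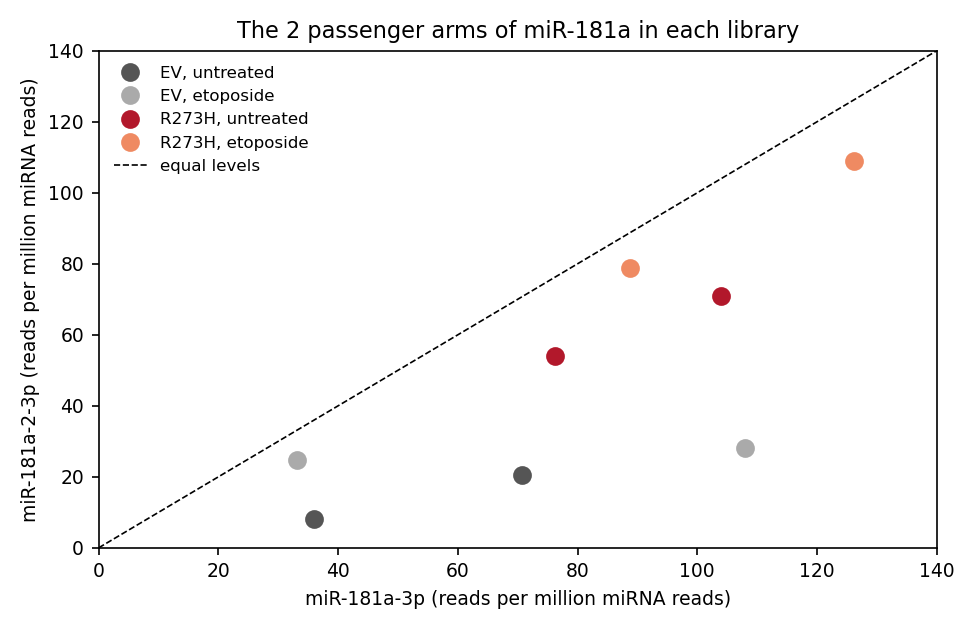
Level of miR-181a-2-3p (chromosome 9 gene) against that of miR-181a-3p (chromosome 1 gene) in each of the 8 libraries, in RPM, with a dashed line where both are equal. All libraries lie below the line; the R273H libraries reach 54.1 to 109 RPM of miR-181a-2-3p, while the EV library with the most miR-181a-3p, at 108 RPM, has 28.2.

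Against the guide, both passenger arms remained minor. The share of miR-181a-2-3p in the reads of itself and miR-181a-5p was 1.56% and 0.671% in untreated EV, 2.23% and 1.20% in treated EV, 7.55% and 2.11% in untreated R273H, and 2.88% and 4.97% in treated R273H. The lines overlapped, since the guide varied between replicates. For miR-181a-3p the same share was 1.59% to 8.04% in EV and 2.94% to 10.7% in R273H. The level of the guide and that of its passenger arms did not follow each other closely. Over the 8 libraries, Pearson's r of log2(RPM + 1) was -0.02 between miR-181a-5p and miR-181a-3p and 0.40 between miR-181a-5p and miR-181a-2-3p, against 0.76 between the passenger arms and 0.77 to 0.86 between pairs of the guides miR-181a-5p, miR-181b-5p and miR-181c-5p. These are descriptions, as the values share library depth and composition. The share of miR-181b-5p in the reads of the 2 leading guides was 27.5% to 41.6% over the libraries and ranged as widely within treated EV (41.6% and 29.2%) and untreated R273H (39.7% and 27.5%) as between groups. These replicates differed by more than their counting intervals.

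**Figure D4:**
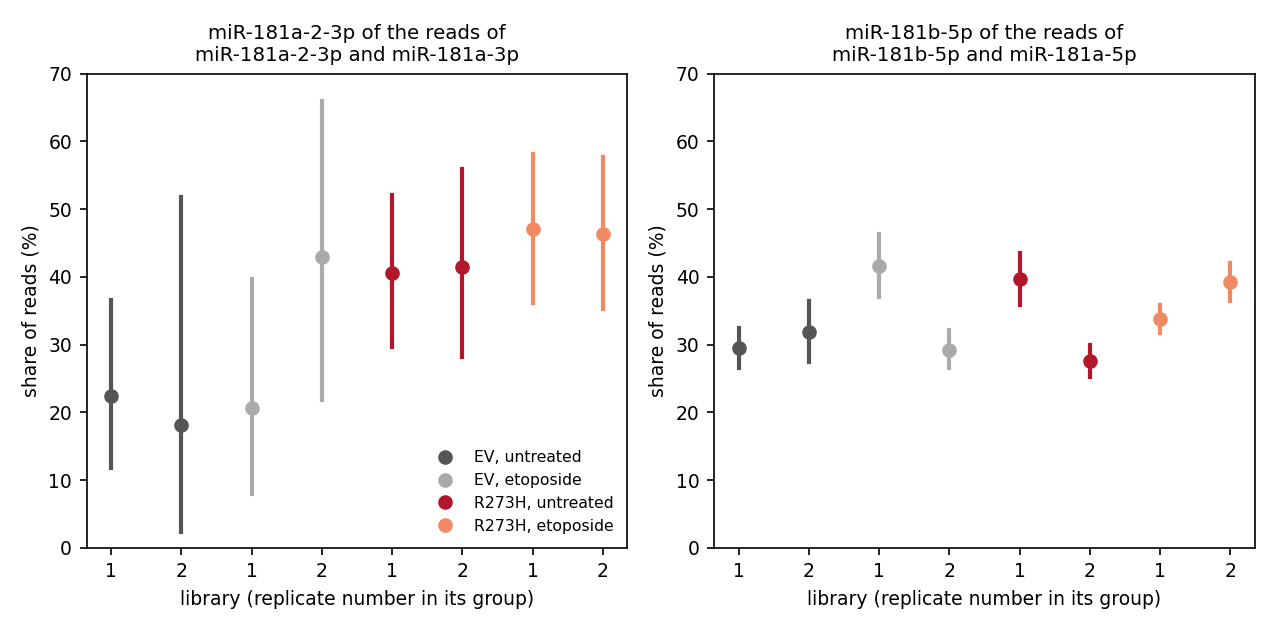
Left, share of miR-181a-2-3p in the reads of both miR-181a passenger arms; right, share of miR-181b-5p in the reads of miR-181b-5p and miR-181a-5p, each in % of reads per library with 95% exact intervals. On the left the R273H libraries sit at 40.5% to 47.1% and 3 of the 4 EV libraries at 18.2% to 22.4%; on the right the groups overlap between 27.5% and 41.6%.

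Etoposide gave no call for the family in either line. In EV, 0 of the 5 members tested passed in limma, 0 had an unadjusted p under 0.05, and edgeR and DESeq2 called 0, where 2 of 296 miRNAs (0.676%) passed. The normalized counts of miR-181a-5p were 448 and 448 in untreated and 251 and 731 in treated cells, so that the treated libraries lay on both sides. Its log2 difference was -0.07 (95% interval -0.76 to 0.63, limma adjusted p of 0.99). The counts of miR-181b-5p were 187 and 209 against 178 and 302, with a log2 difference of 0.23 (-0.47 to 0.93, limma adjusted p of 0.97). For miR-181a-2-3p they were 7.09 and 3.03 against 5.72 and 8.86, a log2 difference of 0.51 (-0.93 to 1.95, limma adjusted p of 0.95). The remaining 2 members tested had log2 differences of 0.0015 (miR-181c-5p) and -0.17 (miR-181a-3p), and the groups overlapped for each member, where 18.6% of all miRNAs tested were higher and 15.5% lower without overlap.

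In R273H, all 6 members were tested, and limma called 0 of them and 0 of 341 miRNAs (0%), of which 31 had an unadjusted p under 0.05, none of them a member. With edgeR and DESeq2, 0 members were called too. The counts of miR-181a-5p were 521 and 1207 in untreated and 1114 and 540 in treated cells, a log2 difference of -0.03 (95% interval -1.01 to 0.94, limma adjusted p of 0.99). The 2 treated libraries thus spanned nearly the same range as the untreated ones. For miR-181b-5p the counts were 343 and 458 against 568 and 349, a log2 difference of 0.17 (-0.59 to 0.92, limma adjusted p of 0.95). Those of miR-181a-2-3p were 42.6 and 26.0 against 33.0 and 28.2, with a log2 difference of -0.12 (-0.87 to 0.63, limma adjusted p of 0.96). The log2 difference was -0.45 for miR-181a-3p, 0.38 for miR-181c-5p and 0.21 for miR-181d-5p, and the groups of each overlapped, where 20.5% of all miRNAs were higher and 18.8% lower without overlap. With the criteria of the study applied to the limma values, 0 members passed in either line, beside 6.76% of all miRNAs in EV and 6.16% in R273H. These comparisons share the untreated libraries with that between the untreated lines.

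The scale mattered for the direction under etoposide. In RPM, of the members tested, miR-181b-5p and miR-181a-2-3p were higher in both treated than in both untreated EV libraries, and miR-181b-5p, miR-181c-5p and miR-181a-2-3p in R273H. The same held for 33.1% of all miRNAs tested in EV and 52.8% in R273H. No member tested was lower without overlap in RPM, as were 5.74% of all miRNAs in EV and 3.23% in R273H. The median log2 ratio of mean RPM was 0.42 over the members and 0.45 over all miRNAs in EV, and 0.71 and 0.72 in R273H. The median of the members was thus no higher than that of all miRNAs in either line. The share of miR-21-5p was 41.3% and 41.3% in untreated and 33.5% and 44.5% in treated EV, and 43.8% and 38.2% in untreated and 37.4% and 30.6% in treated R273H, and its part in these values was not tested.

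Whether the lines responded differently to etoposide was tested in the edgeR fit of 8 libraries. Of 334 miRNAs, 0 were called (0%), and 12 had an unadjusted p under 0.05, none of them a member. DESeq2 and limma on reads scaled to equal miRNA totals called 0 of the 6 members. The difference between the responses was -0.47 on the log2 scale for miR-181a-2-3p, -0.17 for miR-181a-5p, -0.06 for miR-181b-5p, 0.30 for miR-181c-5p, -0.23 for miR-181a-3p and -1.35 for miR-181d-5p, each with an adjusted p of 1.00 in edgeR. The last rests on 1 to 7 reads in a library.

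The arms outside the list were low. The passenger arm miR-181b-3p, which was found only in MIR181B1 on chromosome 1, had 1 and 1 reads in untreated EV, 4 and 0 in treated EV, 6 and 6 in untreated R273H, and 6 and 11 in treated R273H. Its mean normalized count was 1.14 in untreated EV and 5.745 in untreated R273H. It thus reached the minimum mean of 3 only through R273H, also in the fit of 8 libraries. Its tests between the lines, called or not, are therefore no support for a difference. The ratio of untreated R273H to untreated EV was 5.92 from 12 and 2 reads (95% counting interval 1.32 to 54.5), and limma gave an adjusted p of 0.076. It passed without the trend of limma (adjusted p of 0.036) and, in limma, without the second untreated EV library (0.0073). Over both conditions its log2 difference was 1.68, or 3.20-fold, which was not called (adjusted p of 0.062 in edgeR). It was called with the size factors of DESeq2 (1.75, adjusted p of 0.047 in edgeR) and without the first treated EV library, the one with 4 reads (3.93, adjusted p of 0.0085 in edgeR). Adjusted p values ran from 0.047 to 0.12 over the other fits of this contrast and from 0.0085 to 0.27 over the libraries left out in turn, and no other of these passed. The arm miR-181c-3p had 9 to 35 reads and took 16.5% to 41.7% of the reads of both miR-181c arms. For either miR-181a passenger arm beside miR-181a-5p the share was at most 10.7%. These shares are not alike, since miR-181a-5p pools the reads of 2 genes and miR-181c-5p comes from 1. In all, 1 read of miR-181d-3p was found.

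Other miRNAs that act on ATM, taken from a list, gave a mixed picture beside the miR-181 guides. Of 6 listed, 5 were tested, and in untreated cells limma called 1 higher in R273H and 0 lower, where 10.9% of all miRNAs tested were called higher and 9.54% lower. This was miR-18a-5p, a member of the miR-17-92 cluster, at 5715 and 5912 RPM in EV and 24069 and 12131 in R273H (log2 difference of 1.64, adjusted p of 0.0029 in limma). The call of miR-18a-5p was lost without either R273H library (adjusted p of 0.21 and 0.16 in limma) and was also lost with equal upper quartiles (0.093), without the trend of limma (0.069) and with the replicate number as a block (0.090). Under etoposide it was at 5685 and 3401 RPM in EV and 14102 and 18936 in R273H (1.55, adjusted p of 0.00095 in edgeR). There miR-100-5p, at 45421 and 31907 RPM in EV and 18507 and 18589 in R273H, was lower (-1.35, adjusted p of 0.0087 in edgeR), though not without the first or the second treated R273H library (0.051 and 0.18). These are 1 higher and 1 lower of 5 tested, where 8.08% of all miRNAs were called higher and 14.4% lower. The median log2 difference of the 5 between the untreated lines was -0.10, against 0.10 over all miRNAs. For etoposide against untreated cells, limma called 0 of the 5 in either line. It called 2 of 296 miRNAs in EV (0.676%) and 0 of 341 in R273H, so this does not show that the 5 were unchanged.

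Of 12 listed miRNAs of TGF-beta signaling and EMT, 5 were tested between the untreated lines. In limma 0 were called, where 20.4% of all miRNAs tested were. Their median log2 difference was 0.50, against 0.10 over all miRNAs. Under etoposide 0 were higher and 1 lower of 5 tested in edgeR, beside 14.4% of all miRNAs called lower, namely miR-205-5p, an epithelial miRNA, which had 5 reads in both treated EV libraries and 0 in both treated R273H libraries (adjusted p of 0.0033 in edgeR, and 0.051 and 0.050 without the first and the second treated R273H library). The reads of miR-205-5p were 3 and 6 in untreated EV and 1 and 7 in untreated R273H. It therefore reached the minimum mean of 3 reads only through groups other than treated R273H, and its call rests on few reads. For etoposide against untreated cells, limma called 0 of 6 tested in EV and 0 of 4 in R273H. It called 2 of 296 miRNAs in EV (0.676%) and 0 of 341 in R273H, so this does not show that they were unchanged.

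The miRNAs outside the family whose levels were most like those of miR-181a-5p over the 8 libraries, among 231 with a mean of at least 10 reads, were miR-30a-5p (Pearson's r of log2(RPM + 1) of 0.80), miR-374a-5p (0.78) and miR-30e-5p (0.78). Those most like miR-181a-2-3p were miR-582-5p (0.95), with 0 to 32 reads, miR-30e-3p (0.94), with 2 to 57 reads, and miR-615-3p (0.90), with 2 to 55 reads. The values of these miRNAs share depth and composition with those of the members.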

How the data were processed

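Small RNA libraries of 4 groups, 2 libraries each, were sequenced on an Ion PGM. The authors trimmed the reads (Phred of at least 20, 17 to 35 bases), aligned them with SHRiMP to miRBase 20 and with Novoalign to GRCh37 (hg19), counted them and normalized the counts with DESeq. Each deposited table holds the normalized signal, that is reads over the size factor of their library, and the 3 tables were normalized separately. All values (100%) were whole multiples of 1 read within 0.02, so whole reads were recovered, and the untreated libraries gave the same reads in both of their tables. The deposited tables of comparisons hold the authors' own fold changes and p-values and were not used.

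Groups follow the sample labels. The study calls the replicates biological, and their miRNA reads differed by 32.3 to 70.4 chi-square per degree of freedom. Each deposited table was tested with limma 3.58.1 (trend, two-sided) on log2(normalized count + 1) of the miRNAs whose mean reached 3, with Benjamini-Hochberg adjustment over all of them. Comparisons without a table used edgeR 4.0.16 (quasi-likelihood, TMM) on the recovered reads of 8 libraries. DESeq2 1.42.0, other pseudocounts (0.5 and 5), filters and scalings, a replicate block and leaving out each library were alternatives. Simulated reads with known changes were put through limma, edgeR and DESeq2 for the untreated lines. The difference of responses in edgeR and DESeq2 and the edgeR comparison under etoposide were simulated too. The contrast over both conditions, the other scalings, the replicate block and the fits without a library were not. R 4.3.3, Python 3.11.15, pandas 2.3.3, numpy 2.4.6 and scipy 1.17.1 were used. Depth was 234545 to 579367 reads, so members under about 10 reads carry wide counting error. The intervals of shares and of the read ratio cover counting error only, while those of limma rest on the spread between libraries.

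The rule for naming took all listed members with a row, other miR-181 rows once, the 3 miRNAs most like miR-181a-5p and miR-181a-2-3p, and the called miRNAs of 2 lists. The members and lists were chosen with earlier results of these data known. Gene positions are from GENCODE 44 lifted to GRCh37, and mature sequences, from RefSeq on GRCh38.p14, were located in the GRCh37 genome.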

Additional observations from a re-analysis of the deposited data

How the results depend on the processing

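Each group had 2 libraries, and miR-181a-2-3p had 2 to 11 reads in the EV libraries. Of 641 alternative log2 values of the arms, 79 had the opposite sign, all for values that were not called, and 0 of these were of miR-181a-2-3p between the lines. The cause was not tested for any value below. Counts of calls are at an adjusted p under 0.05, and log2 values are differences.

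For R273H against EV in untreated cells, 62 miRNAs and 1 member were called. No member was called with edgeR (0), equal upper quartiles (0; miR-181a-5p -0.0016) or miRNA reads without miR-21-5p (0; all miRNAs 37), and limma without the trend called 39 miRNAs. For etoposide in EV, 2 miRNAs were called, against 1 with edgeR (miR-181a-5p 0.092) and without the trend, and 0 with miRNA reads without miR-21-5p (miR-181a-5p 0.31, miR-181a-3p 0.19). There miR-181a-5p was 0.14 with DESeq2, and miR-181c-5p was -0.024 once upper quartiles were equal and -0.00038 with a pseudocount of 0.5. For etoposide in R273H, 0 miRNAs were called, against 2 with DESeq2, 2 with a mean of at least 10, 2 with equal upper quartiles (miR-181a-5p 0.017) and 3 with miRNA reads without miR-21-5p. The last gave 0.51 for miR-181a-5p, 0.084 for miR-181a-3p, 0.41 for miR-181a-2-3p, 0.28 for miR-181b-3p and 0.21 for miR-181c-3p, while the median of all miRNAs moved by 0.53.

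For R273H against EV under etoposide, 75 miRNAs and 1 member were called. DESeq2 called 0 members, and limma on reads scaled to equal miRNA totals called 26 miRNAs and 0 members (miR-181c-5p 0.35, miR-181c-3p 0.17). With no filter miR-181c-5p was 0.099 and miR-181c-3p 0.10, and with a mean of at least 10 miR-181c-5p was 0.0063. For the difference of responses, 0 miRNAs were called and limma on the scaled reads called 1 (miR-181a-5p 0.31, miR-181b-5p 0.22, miR-181a-3p 0.0032). With no filter miR-181b-5p was 0.063. For the mean of both line comparisons, limma on the scaled reads called 77 of 334 miRNAs in place of 123 (miR-181c-5p 0.026). Without miR-21-5p in the total, the summed level of the family was 3312, 4572, 4486 and 6230 RPM in untreated and treated EV and untreated and treated R273H, against 1944, 2732, 2687 and 4090 with it.

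A replicate block was tried because the labels number the replicates in each group. Same-numbered libraries deviated together with correlations of -0.40 to 0.26, so the numbers were not taken as pairs. With the replicate block 0 miRNAs and 0 members were called between the untreated lines, 0 members between the lines under etoposide, miR-181a-5p was 0.087 in the difference of responses and miR-181d-5p -0.059 in the mean of both line comparisons, where miR-181a-2-3p was still called (1.68, adjusted p of 0.0047 in edgeR). In a table of 2 groups of 2 the block leaves a single residual degree of freedom.

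Leaving out each library in turn, with the lone library taken to vary like the others, gave the following ranges. For R273H against EV untreated, 0 to 51 miRNAs and 0 to 1 members were called, with miR-181a-5p -0.24 to 0.93, miR-181c-5p -0.65 to 0.22 and miR-181c-3p -0.032 to 0.88. For etoposide in EV, 0 to 1 miRNAs were called, with miR-181a-5p -0.83 to 0.70, miR-181b-5p -0.15 to 0.61, miR-181c-5p -0.60 to 0.60, miR-181a-3p -0.59 to 0.25 and miR-181c-3p -0.063 to 0.31. For etoposide in R273H, 0 to 9 miRNAs were called, with miR-181a-5p -0.64 to 0.57, miR-181b-5p -0.18 to 0.52, miR-181c-5p -0.072 to 0.84, miR-181d-5p -0.57 to 0.99, miR-181a-2-3p -0.47 to 0.22, miR-181b-3p -0.52 to 0.11 and miR-181c-3p -0.82 to 0.19. For R273H against EV under etoposide, 23 to 77 miRNAs and 0 to 1 members were called, with miR-181a-5p -0.42 to 1.02, miR-181b-5p -0.022 to 0.67, miR-181c-5p -0.51 to 0.62, miR-181a-3p -0.018 to 0.98 and miR-181c-3p -0.75 to 0.42. For the difference of responses, 0 to 1 miRNAs were called, with miR-181a-5p -0.83 to 0.72, miR-181b-5p -0.50 to 0.30, miR-181c-5p -0.16 to 0.97, miR-181d-5p -2.02 to 0.071, miR-181a-3p -0.82 to 0.36, miR-181b-3p -2.15 to 3.33 and miR-181c-3p -1.14 to 0.17. For the mean of both line comparisons, 1 to 2 members were called, with miR-181a-5p -0.17 to 0.66, miR-181c-5p -0.50 to 0.13, miR-181d-5p -0.64 to 0.41 and miR-181c-3p -0.18 to 0.46.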
